A study of Mus musculus with 12 samples.

Results

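The genes described here encode the nuclear subunits and the assembly factors of respiratory complex I in mouse. They were chosen by symbol: every gene whose symbol, after the row number was removed, began with Ndufa, Ndufb, Ndufc, Ndufs, Ndufv or Ndufaf. The rule gave 45 of the 21125 symbols in the deposited table, and their 171 rows were summed per symbol. Of the 45, 44 had at least 1 FPKM in at least 3 separate profiles and were tested, and Ndufa4l2 did not. FPKM is a fragment count scaled by transcript length and by sequencing depth, so that levels can be set side by side between genes.

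Complex I, or NADH dehydrogenase, is the entry point of the mitochondrial respiratory chain. Its matrix arm takes electrons from NADH through a flavin and a chain of iron-sulfur clusters to ubiquinone, and its membrane arm pumps protons. The mitochondrial genome encodes the core of the membrane arm, and the nucleus encodes the core of the matrix arm, the accessory subunits that surround both arms, and the assembly factors that help to build the complex but are absent from the finished enzyme. MPTP is converted in the brain to MPP+, an inhibitor of complex I that dopaminergic neurons take up. Ppargc1a encodes PGC-1alpha, a coactivator of the transcription of nuclear genes for mitochondria.

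The study measured RNA by sequencing in microglia, the resident macrophages of the brain, taken from the midbrain and sorted by flow cytometry. The KO MPTP and KO PBS groups had the genotype Ppargc1a FF CreER, and the WT MPTP and WT PBS groups the genotype Ppargc1a FF, so all 4 groups share the FF allele and lie 6 weeks after tamoxifen. The labels name neither the promoter of CreER nor the age of the mice, and no source says that the 3 samples per group are different animals. The p-values therefore cover the spread among profiles alone, and that spread may be technical.

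The table held 6 separate profiles under its 12 sample columns: KO MPTP 2, KO PBS 1, KO PBS 2, WT MPTP 1, WT PBS 1 and WT PBS 2. The other 6 columns followed from these to rounding in nearly every row, so they carry no error of their own. The column numbered 3 in each group was 0.99 times the mean of the other two columns of the group plus 0.1 FPKM, and WT MPTP 2 was 1.02 times WT MPTP 1. KO MPTP 1 was 1.02 times KO PBS 2, which leaves 1 profile under 2 treatment labels, and its treatment is unknown. In all, 49 rows in 42 genes departed from these relations, and Ndufs8 and Ndufa2 were among them. Column sums lay between 388861 and 434022 FPKM, and the read depth is unknown. Ppargc1a was between 0.12 and 0.42 FPKM in the KO profiles and between 2.72 and 6.21 FPKM in the WT profiles (p = 0.1 by a two-sided exact permutation test, and no smaller p is possible with 3 against 3). The macrophage genes Tyrobp, Trem2 and Csf1r averaged 433, 127 and 117 FPKM, whereas P2ry12 and Cx3cr1, which define resting microglia, were close to 0, at 0.19 and 0.05 FPKM and Tmem119 at 2.02 FPKM. The neuronal gene Syt1 was at 0 in every profile and the astrocyte gene Gfap at 0.04 FPKM or less.

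The promoters of 3 genes are printed because the results turn on these genes: Ndufs8, the member that passed a test, Ndufv1, another core subunit gene on the same chromosome that did not, and Ndufa1, whose profiles separated by genotype. Each is 250 bases before to 50 after the transcription start in the RefSeq table of GRCm38.p6, read along the minus strand, on which all of them lie. Ndufs8 is at chr19:3912725-3913024, Ndufv1 at chr19:4012706-4013005 and Ndufa1 at chrX:37191189-37191488. Between the windows of Ndufs8 and Ndufv1 lie 99681 bases. Capitals mark a match to the ETS motif.
Ndufs8: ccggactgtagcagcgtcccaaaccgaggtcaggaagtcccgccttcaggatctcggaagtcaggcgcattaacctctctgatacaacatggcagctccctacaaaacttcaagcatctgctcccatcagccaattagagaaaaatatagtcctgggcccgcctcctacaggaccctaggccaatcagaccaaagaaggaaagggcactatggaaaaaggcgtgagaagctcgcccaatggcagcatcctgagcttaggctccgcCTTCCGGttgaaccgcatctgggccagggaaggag
Ndufv1: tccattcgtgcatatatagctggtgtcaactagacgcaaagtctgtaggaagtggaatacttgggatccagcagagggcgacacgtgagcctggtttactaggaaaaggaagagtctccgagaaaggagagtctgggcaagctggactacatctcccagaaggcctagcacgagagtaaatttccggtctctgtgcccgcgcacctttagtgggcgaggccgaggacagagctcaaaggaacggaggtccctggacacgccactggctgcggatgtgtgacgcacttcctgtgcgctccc
Ndufa1: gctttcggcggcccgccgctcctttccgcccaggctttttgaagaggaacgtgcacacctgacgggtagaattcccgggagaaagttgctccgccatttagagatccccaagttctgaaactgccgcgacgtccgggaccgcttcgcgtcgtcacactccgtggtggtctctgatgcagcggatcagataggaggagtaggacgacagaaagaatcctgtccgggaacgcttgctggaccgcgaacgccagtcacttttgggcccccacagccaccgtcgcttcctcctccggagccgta

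Motifs of 3 factors that bind promoters of mitochondrial genes were searched on both strands, and none overlaps another in its letters. The RefSeq table held 41 promoters for 39 of the members. The NRF1 core GCATGCG was in 5 of the 41 (12.2%), against 3.58% of all 32851 promoters. These were the promoters of Ndufa11, Ndufa6, Ndufa8, Ndufaf4 and Ndufaf5. The ERR motif AAGGTCA was in 3 of 41 (7.32%), those of Ndufb2, Ndufb4 and Ndufs5, against 4.72% of all promoters. The ETS motif CCGGAAG was in 5 of 41 (12.2%), that of Ndufs8 among them, against 8.86% of all promoters. Ndufv1 and Ndufa1 held none of these letters in this window. The 39 members lay on 15 chromosomes, so they do not form a gene cluster. A match is a description of the sequence and was not tested for binding.

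Most complex I genes were expressed at high levels in every profile, with a spread like that of other genes in their range of levels. The 45 members had a median level of 51.3 FPKM over the 6 profiles, against a median of 10.2 FPKM for all 10634 genes tested. Of the 45 members, 36 averaged at least 20 FPKM. The median coefficient of variation over the 6 profiles, the SD as a share of the mean, was 5.47% for the tested members and 5.11% for the 7484 tested genes in the same range of levels.

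**Figure D1:**
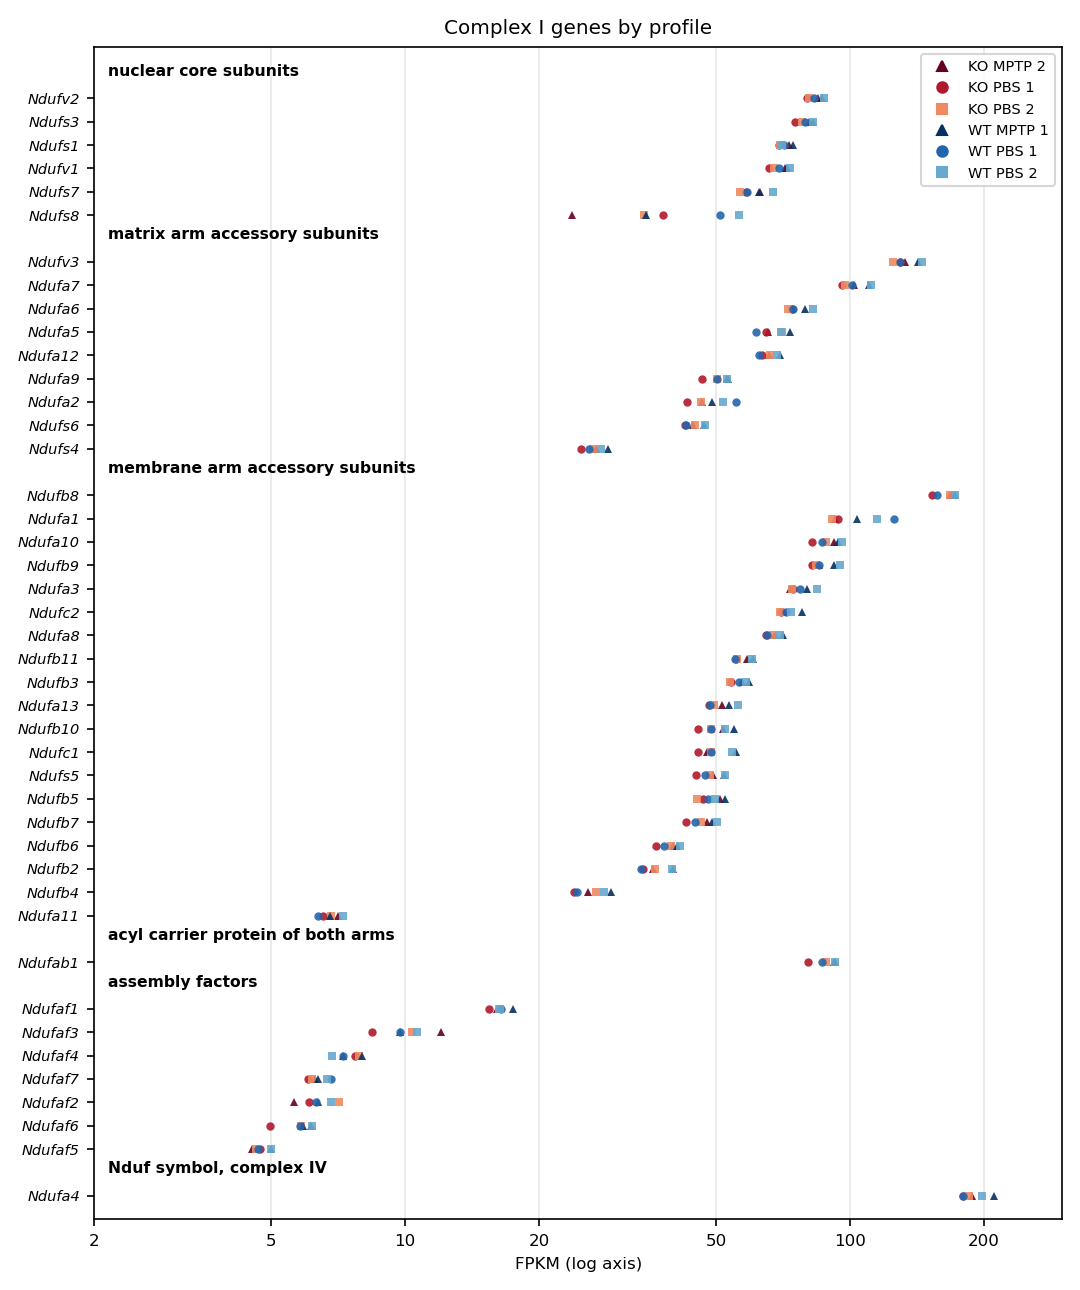
Levels of tested complex I genes in the 6 separate profiles, in FPKM on a log axis, grouped by role and ordered by mean level within each role. Most members lie in a narrow band with KO PBS 1 at its low end, the assembly factors lie between 4.53 and 17.5 FPKM, and Ndufs8 is spread between 23.8 and 56.4 FPKM.

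The 7 nuclear core subunits form the catalytic part of the matrix arm. Ndufv1, which binds NADH and the flavin, had 71.6, 65.7 and 67.7 FPKM in KO MPTP 2, KO PBS 1 and KO PBS 2, and 72.3, 69.4 and 73.2 FPKM in WT MPTP 1, WT PBS 1 and WT PBS 2. Ndufv2, its iron-sulfur partner, had 84.7, 79.9 and 80.8 FPKM in the KO profiles and 86.8, 83.2 and 87.5 FPKM in the WT profiles, in the same order. The ranges of the genotypes overlapped for both genes. Ndufs1, the large iron-sulfur subunit, had 72.8, 69.1 and 69.5 FPKM in the KO profiles and 74.5, 71.2 and 70.5 FPKM in the WT profiles. Its coefficient of variation of 2.89% was the lowest among the members tested.

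Of the core subunits nearer to ubiquinone, Ndufs3 and Ndufs7 had coefficients of variation of 3.65% and 6.43%. Ndufs3, a subunit of the ubiquinone-reducing part, had 81.1, 75.3 and 78.0 FPKM in KO MPTP 2, KO PBS 1 and KO PBS 2, and 82.6, 79.1 and 82.7 FPKM in WT MPTP 1, WT PBS 1 and WT PBS 2. Ndufs7, which carries the last iron-sulfur cluster before ubiquinone, had 62.8, 58.3 and 56.6 FPKM in the KO profiles and 62.5, 58.8 and 67.3 FPKM in the WT profiles. Both genes had overlapping ranges in KO and WT.

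Ndufs8, the core subunit that passes electrons through its iron-sulfur clusters towards Ndufs7, stood apart from the others. It had 23.8, 38.0 and 34.5 FPKM in KO MPTP 2, KO PBS 1 and KO PBS 2, and 34.7, 51.1 and 56.4 FPKM in WT MPTP 1, WT PBS 1 and WT PBS 2. The WT PBS profiles were the highest and KO MPTP 2 was the lowest. WT MPTP 1 lay below KO PBS 1 and just above KO PBS 2, the profile under 2 treatment labels. The coefficient of variation was 30.1%, the highest among the members tested, and the mean level of 39.7 FPKM was the lowest of the 7 core subunits.

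Ndufs8 was called lower under MPTP in both genotypes, each time from a single MPTP profile. In WT, the log2 difference between MPTP and PBS was −0.61 ± 0.09 (SE; limma, adjusted p = 0.0145), a level 0.646 times the WT PBS mean. In KO it was −0.66 ± 0.10 (SE; limma, adjusted p = 0.0283), 0.625 times KO PBS 1. Only 1 profile stood on the MPTP side in WT and 1 on each side in KO. The error holds no replicate of an MPTP group: it combines the spread of the WT PBS pair (1 residual degree of freedom) with the trend over all genes (9.01 prior degrees of freedom). The KO comparison set KO MPTP 2 against KO PBS 1. These are bulk samples, in which a lower level per cell and fewer cells expressing the gene cannot be told apart. The change did not differ detectably between genotypes, with an interaction of −0.04 and a 95% interval of −0.33 to 0.25 (limma, adjusted p = 1).

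The genotype differences of Ndufs8 were of like size but did not pass the threshold. KO PBS against WT PBS gave −0.49 ± 0.09 (SE; limma, adjusted p = 0.0699), and KO MPTP against WT MPTP gave −0.53 ± 0.10 (SE; limma, adjusted p = 0.132). Over both treatments the mean was 32.1 ± 7.43 FPKM in KO and 47.4 ± 11.3 FPKM in WT (SD, n = 3 each), with a log2 difference of −0.55 ± 0.15 (SE; limma, adjusted p = 0.35). An exact permutation test of the 6 levels gave a two-sided p of 0.2. These differences stayed below 0 under every alternative run, but their calls varied. Ndufs8 was called in 8 of 17 alternatives over both treatments (adjusted p between 1.5e-06 and 0.999), in 5 of 14 within PBS (1.02e-05 to 0.682) and in 3 of 14 within MPTP (9.22e-05 to 1). Over both treatments the call was gained when any of KO PBS 1, KO PBS 2, WT PBS 1 or WT MPTP 1 was left out (adjusted p = 0.0304, 0.0255, 0.0347 and 0.00264), and the adjusted p was 0.474 without KO MPTP 2 and 0.99 without WT PBS 2.

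Both calls of Ndufs8 rested on settings of the fit and on single profiles. In WT the call was lost without WT PBS 1 (adjusted p = 0.104) and without WT PBS 2 (adjusted p = 0.142), both in a fit that counts the doubly labelled profile as KO PBS, and in KO the same fits gave 0.0874 and 0.0849. With that profile counted as KO MPTP at the values of KO PBS 2, the KO difference was −0.40 (adjusted p = 0.874) and the adjusted p in WT was 0.228. Over 14 alternatives the adjusted p ranged between 5.4e-06 and 0.454 in WT and between 3.38e-05 and 0.874 in KO, and the difference stayed below 0 in all of them.

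Ndufs8 was also a gene whose deposited columns departed from the relations between columns. The column KO MPTP 1 held 25.6 FPKM, where 1.02 times KO PBS 2 gives 35.2 FPKM, a departure of −9.60 FPKM. WT MPTP 2 held 35.8 FPKM, 0.406 FPKM above the relation. These columns were not used in the fit, and Ndufs8 has 1 row, so no other row of the gene bears on them. Among 10634 tested genes, 40 departed from the relations, and they made up 18 of the 27 genes called for MPTP in WT and 14 of the 31 called for MPTP in KO. How these values arose was not tested.

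**Figure D2:**
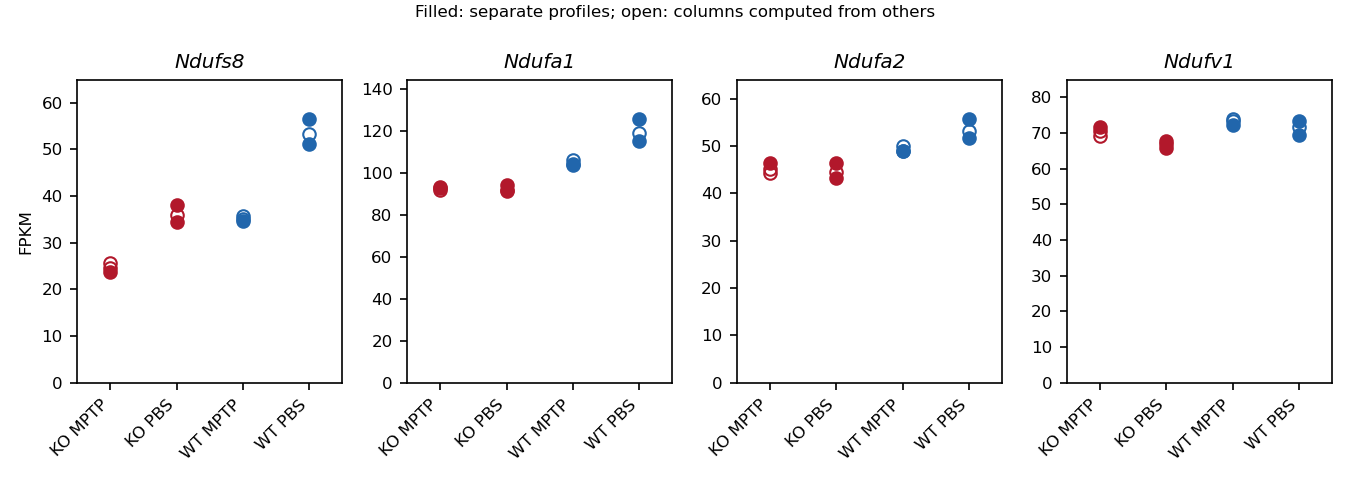
Levels of Ndufs8, Ndufa1, Ndufa2 and Ndufv1 in FPKM by group. Filled points are separate profiles, and open points are the columns that followed from them in nearly every row. The open KO MPTP 1 points of Ndufs8 and Ndufa2 and the open WT MPTP 2 point of Ndufs8 departed from those relations. Ndufs8 in KO MPTP lies at 23.8 FPKM in the separate profile, below every other group. Its column KO MPTP 1 lies at 25.6 FPKM, where the relation to KO PBS 2 gives 35.2 FPKM. Ndufv1 lies between 65.7 and 73.2 FPKM in all separate profiles.

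The 9 accessory subunits of the matrix arm had a median level of 66.0 FPKM. Ndufv3, attached to the NADH-oxidizing tip, was the highest, with 133, 130 and 125 FPKM in KO MPTP 2, KO PBS 1 and KO PBS 2 and 142, 129 and 145 FPKM in WT MPTP 1, WT PBS 1 and WT PBS 2. Ndufs4, a subunit whose loss causes a Leigh-like disease in mice and people, was the lowest, with 26.9, 24.9 and 26.4 FPKM in the KO profiles and 28.5, 25.8 and 27.6 FPKM in the WT profiles. Neither gene separated by genotype or treatment.

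Ndufa2, a small thioredoxin-like subunit of the matrix arm, was lower in every KO profile. It had 46.5, 43.1 and 46.3 FPKM in KO MPTP 2, KO PBS 1 and KO PBS 2, and 48.9, 55.6 and 51.8 FPKM in WT MPTP 1, WT PBS 1 and WT PBS 2. The log2 difference over both treatments was −0.20 ± 0.06 (SE; limma, adjusted p = 0.661), which did not pass the threshold. Its column KO MPTP 1 held 44.3 FPKM against 47.3 FPKM by the relation, a departure of −3.01 FPKM.

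Of the others in that arm, Ndufa5, which sits in the ubiquinone-reducing part, had 65.4, 64.6 and 70.5 FPKM in KO MPTP 2, KO PBS 1 and KO PBS 2 and 73.4, 61.4 and 69.9 FPKM in WT MPTP 1, WT PBS 1 and WT PBS 2. WT PBS 1 was its lowest profile and WT MPTP 1 its highest. Ndufa6, Ndufa7, Ndufa9, Ndufa12 and Ndufs6 averaged between 44.8 FPKM for the zinc-binding Ndufs6 and 103 FPKM for Ndufa7. None of the 9 passed the threshold in any of the 6 comparisons.

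The 19 accessory subunits of the membrane arm had a median level of 51.3 FPKM and the widest range. Ndufb8, in the distal part of the arm, had 168, 153 and 168 FPKM in KO MPTP 2, KO PBS 1 and KO PBS 2 and 173, 157 and 173 FPKM in WT MPTP 1, WT PBS 1 and WT PBS 2. Ndufa11, a subunit of the membrane arm with several transmembrane helices, had 7.07, 6.53 and 6.82 FPKM in the KO profiles and 6.79, 6.35 and 7.24 FPKM in the WT profiles. Its mean of 6.80 FPKM was the lowest among the tested subunits, and the other tested members under 20 FPKM were all assembly factors.

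Ndufa1, a single-helix subunit at the joint of both arms encoded on the X chromosome, was lower in every KO profile. It had 92.6, 94.2 and 91.2 FPKM in KO MPTP 2, KO PBS 1 and KO PBS 2, and 104, 125 and 115 FPKM in WT MPTP 1, WT PBS 1 and WT PBS 2. The KO profiles lay close together and the WT profiles were spread, with WT MPTP 1 the nearest to KO. The means were 92.7 ± 1.49 FPKM in KO and 115 ± 10.7 FPKM in WT (SD, n = 3 each; p = 0.1 in a two-sided exact permutation test, the lowest it can reach).

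Across all genes, the log2 difference of Ndufa1 over both treatments was −0.30 ± 0.06 (SE; limma, adjusted p = 0.0957), and it did not pass the threshold. It was called without WT MPTP 1 (adjusted p = 0.00299) and with a filter at 5 FPKM (adjusted p = 0.00904), and its adjusted p was 0.979 after median scaling of the profiles. Within PBS the difference was −0.35 ± 0.08 (SE; limma, adjusted p = 0.386), and within MPTP −0.17 ± 0.10 (SE; limma, adjusted p = 1). Ndufa1 has 1 row, and none of its columns departed from the relations.

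The acyl carrier protein Ndufab1, which takes part in both arms and in mitochondrial fatty acid synthesis, had 92.0, 80.5 and 88.5 FPKM in KO MPTP 2, KO PBS 1 and KO PBS 2 and 92.4, 86.8 and 92.4 FPKM in WT MPTP 1, WT PBS 1 and WT PBS 2. Ndufb4 and Ndufc1, both in the membrane arm, had the largest falls after Ndufs8 in KO MPTP against WT MPTP, with no call. Ndufb4 had 25.7, 24.0 and 26.8 FPKM in the KO profiles and 29.0, 24.3 and 27.9 FPKM in the WT profiles. Ndufc1 had 47.6, 45.7 and 48.8 FPKM in the KO profiles and 55.4, 48.6 and 54.2 FPKM in the WT profiles. For both, WT PBS 1 lay within the KO range.

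The 7 assembly factors were expressed at lower levels than the subunits, with a median of 6.38 FPKM. Ndufaf1, which acts with Ecsit on the membrane arm, was the highest, with 16.1, 15.5 and 16.3 FPKM in KO MPTP 2, KO PBS 1 and KO PBS 2 and 17.5, 16.4 and 16.3 FPKM in WT MPTP 1, WT PBS 1 and WT PBS 2. Ndufaf5, known in human cells to hydroxylate an arginine of Ndufs7, was the lowest, with 4.53, 4.71 and 4.62 FPKM in the KO profiles and 5.0, 4.67 and 4.98 FPKM in the WT profiles. None of the 7 passed the threshold in any comparison.

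Ndufaf3, an early factor for the ubiquinone-reducing part, had the largest rise of any member. It had 12.01, 8.42 and 10.4 FPKM in KO MPTP 2, KO PBS 1 and KO PBS 2, and 9.75, 9.72 and 10.6 FPKM in WT MPTP 1, WT PBS 1 and WT PBS 2. KO MPTP 2 was the highest and KO PBS 1 the lowest, whereas the doubly labelled KO PBS 2 lay within the WT range. The MPTP difference in KO was 0.47 ± 0.11 (SE; limma, adjusted p = 0.174), and the interaction was 0.52 ± 0.14 (SE; limma, adjusted p = 0.427). Neither passed the threshold.

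The partner of Ndufaf3, Ndufaf4, had 7.24, 7.69 and 7.89 FPKM in KO MPTP 2, KO PBS 1 and KO PBS 2 and 8.0, 7.26 and 6.83 FPKM in WT MPTP 1, WT PBS 1 and WT PBS 2. Ndufaf2, a late factor, had 5.61, 6.09 and 7.08 FPKM in the KO profiles and 6.35, 6.29 and 6.82 FPKM in the WT profiles. Ndufaf6 had 6.15, 4.97 and 5.83 FPKM in the KO profiles and 5.89, 5.81 and 6.17 FPKM in the WT profiles. The groups of all 3 genes overlapped. Ndufaf7, known in human cells as a protein methyltransferase, was 6.26, 6.04 and 6.18 FPKM in the KO profiles and 6.35, 6.80 and 6.67 FPKM in the WT profiles, which did not overlap.

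Ndufa4 and Ndufa4l2 carry the Nduf name but belong outside complex I. Ndufa4, now counted as a subunit of complex IV, had the highest level of the members, with 188, 179 and 185 FPKM in KO MPTP 2, KO PBS 1 and KO PBS 2 and 210.5, 180 and 198 FPKM in WT MPTP 1, WT PBS 1 and WT PBS 2. Ndufa4l2, its hypoxia-induced paralog, was listed at 0 in the KO profiles and at 0.01 FPKM in each WT profile, the smallest value above 0 that a table with 2 decimals can hold.

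Across the members, the comparison of KO with WT over both treatments showed a small shift to lower levels and no call. None of the 44 members passed the adjusted threshold, against 0.0376% of all genes tested, and 6 members, all lower, had an unadjusted p under 0.05 (limma), against 2.97% of all genes. These were Ndufs8, Ndufa1, Ndufa2, Ndufc1, Ndufa7 and Ndufa3. The members had a median log2 difference of −0.07, with 41 of 44 below 0, beside a median of −0.03 and 69.5% below 0 for all genes. After median scaling the median was −0.042 with 40 members below 0, after quantile normalization −0.030 with 36, and without KO PBS 1 it was −0.045 with 39.

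Members whose KO profiles all lay below all WT profiles numbered 8 of 44, or 18.2%, against 7.19% of all genes tested, and none lay above, against 0.818%. The 8 were Ndufa1, Ndufa2, Ndufa3, Ndufa6, Ndufaf1, Ndufaf7, Ndufb9 and Ndufc2. Ndufs8 was not among them, since WT MPTP 1 lay below KO PBS 1. The gap between the genotypes was narrow in several of them, as in Ndufb9, a subunit of the distal membrane arm, with 85.1 FPKM in the highest KO profile and 85.2 FPKM in the lowest WT profile.

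The shift between genotypes was smaller than the shift between the 2 WT PBS profiles, which share genotype and treatment. WT PBS 2 lay above WT PBS 1 for 38 of 44 members, against 52.2% of all genes tested, with a median log2 difference of 0.12 for the members and 0.01 for all genes. KO PBS 1 lay below KO PBS 2 for 34 of 44 members, with a median of −0.053 for the members and −0.0309 for all genes. The profile numbered 1 was thus the lower one for most members in both genotypes, but in KO all genes shifted the same way. The result for KO against WT depended on which WT PBS profile was used. KO PBS 2 lay at a median of −0.10 relative to WT PBS 2 and 0.0034 relative to WT PBS 1. For all genes these medians were −0.0244 and −0.0255. KO MPTP 2 lay at −0.06 relative to WT PBS 2 and 0.05 relative to WT PBS 1, beside 0.0395 and 0.0382 for all genes. KO PBS 1 was the lowest profile for 27 of the 44 members, or 61.4%, and for 42.1% of all genes tested. The highest was WT PBS 2 for 20 members (45.5%) and for 14.1% of all genes tested, and WT MPTP 1 for 19 members (43.2%) and for 31.6% of all genes tested.

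**Figure D3:**
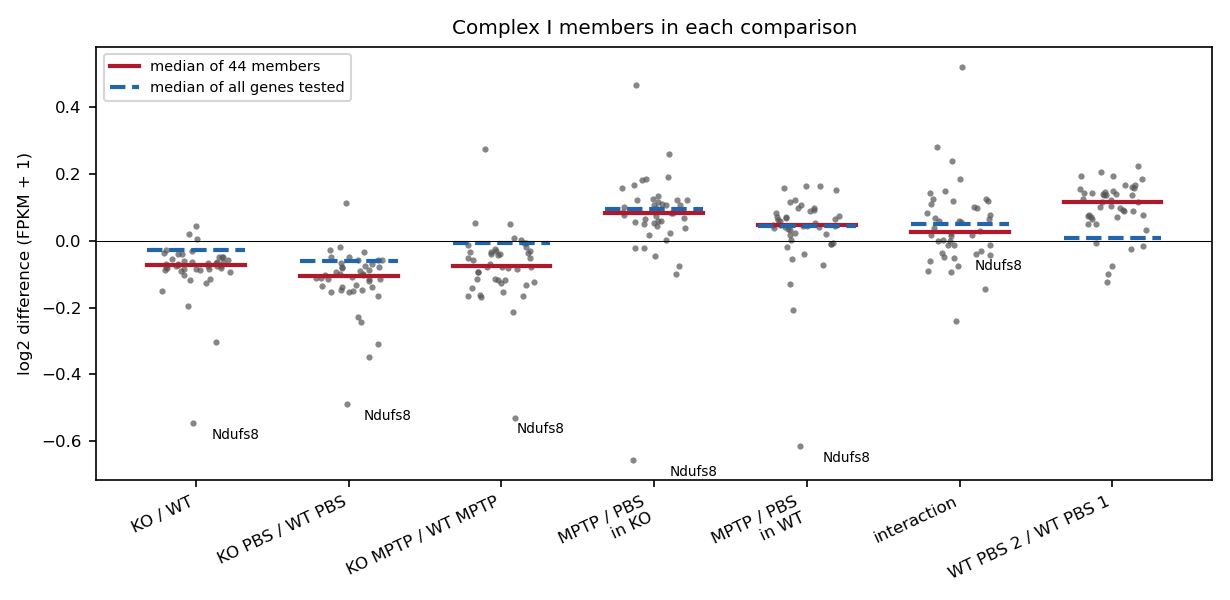
Log2 difference of each of the 44 tested members (grey points, spread sideways for visibility) in the 6 comparisons and between the WT PBS profiles, with the median of the members (solid line) and of all genes tested (dashed line). The members' median is −0.07 for KO against WT and 0.12 between the WT PBS profiles, and Ndufs8 lies far below the other members in every comparison of groups except the interaction.

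Within PBS, KO against WT gave no call among the members. All but 1 of the 44 had a difference below 0, with a median of −0.11, beside a median of −0.06 and 77.9% below 0 for all genes. After median scaling the median was −0.046 with 35 members below 0, and after quantile normalization −0.033 with 31. With WT PBS 2 left out of a fit that counts the doubly labelled profile as KO PBS, it was −0.035 with 31 below 0. Called genes made up 0.226% of all genes tested. By limma, 5 members were lower at an unadjusted p under 0.05, against 4.05% of all genes. They were Ndufs8, Ndufa1, Ndufa2, Ndufaf3 and Ndufaf6. The member above 0 was Ndufaf4, at 0.11 ± 0.09 (SE).

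Within MPTP, KO against WT likewise gave no call among the members, against 0.103% of all genes tested. Of the 44, 39 lay below 0 with a median of −0.08, beside a median of −0.01 and 53.6% below 0 for all genes, and after quantile normalization the median was −0.042 with 33 below 0. By limma and an unadjusted p under 0.05, Ndufs8 was lower, against 0.752% of all genes, and Ndufaf3 higher, at 0.28 ± 0.11 (SE; adjusted p = 1), against 2.84% of all genes. The comparison set 1 profile against 1 profile. The comparisons of KO with WT share profiles with those of MPTP with PBS, so they are not independent of each other.

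Under MPTP, the members other than Ndufs8 moved with the rest of the genes. In WT, 1 of 44 members was called, Ndufs8, against 0.254% of all genes tested, and the members' median was 0.05 beside 0.04 for all genes. With WT PBS 1 left out of a fit that counts the doubly labelled profile as KO PBS, the median was −0.01, and with WT PBS 2 left out it was 0.11. For all genes, WT PBS 1 and WT PBS 2 lay at medians of −0.0423 and −0.0395 relative to WT MPTP 1. For the members these medians were −0.1061 and 0.0081. In KO, 1 of 44 was called, again Ndufs8, against 0.292% of all genes, and the median was 0.08 beside 0.09 for all genes, with 6 members below 0, against 13.1% of all genes, whereas median scaling put 25 of the 44 below 0. After median scaling the members' median in WT was 0.0038. Of the members other than Ndufs8, Ndufa1 had an unadjusted p under 0.05 in WT, at −0.21 ± 0.08 (SE; limma, adjusted p = 1), where 1.04% of all genes were lower at that p. In KO, Ndufaf3 and Ndufaf6 did, both higher, against 8.77% of all genes.

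The interaction of MPTP and genotype gave no call among the 44 members, against 0.0752% of all genes tested. Ndufaf3 alone had an unadjusted p under 0.05 (limma), where 4.72% of all genes were higher. The members' median was 0.03 beside 0.05 for all genes, and it was −0.028 after median scaling. With the doubly labelled profile counted as KO PBS, it was 0.075 without WT PBS 1 and −0.055 without WT PBS 2. The interaction was −0.24 ± 0.14 for Ndufaf4, −0.15 ± 0.14 for Ndufa5 and −0.09 ± 0.13 for Ndufa4 at the low end, and 0.28 ± 0.15 for Ndufaf6 and 0.24 ± 0.12 for Ndufa2 below Ndufaf3 at the high end (SE; limma, adjusted p = 1 for each).

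The other respiratory complexes gave calls in genes of complex IV and of ATP synthase. The summed level of the complex I members was 96.8%, 91.7% and 94.7% of the WT PBS mean in KO MPTP 2, KO PBS 1 and KO PBS 2, against 103%, 96.3% and 104% in WT MPTP 1, WT PBS 1 and WT PBS 2. All tested genes together stood at 101%, 95.6% and 95.9% in the KO profiles and 105%, 98.8% and 101% in the WT profiles. KO MPTP 2 and WT PBS 1 thus had nearly equal sums for complex I. ATP synthase subunits stood at 83.7%, 81.4% and 84.7% in the KO profiles and 91.3%, 98.6% and 101% in the WT profiles, and complex IV at 86.7%, 87.3% and 86.8% against 98.8%, 96.1% and 104%. By the median log2 difference of KO against WT over both treatments, the 3 lists lay close together. It was −0.08 for ATP synthase and −0.10 for complex IV, beside −0.07 for complex I. The lowest genes were Atp5a1 at −0.98 and Cox6c at −0.78, so the sums do not describe a typical gene of these lists.

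Single genes of these complexes differed more than any complex I gene did. Atp5a1, the alpha subunit in the catalytic head of ATP synthase and another gene that departed from the relations between columns, had 64.7, 147 and 157 FPKM in KO MPTP 2, KO PBS 1 and KO PBS 2 and 173, 254 and 266 FPKM in WT MPTP 1, WT PBS 1 and WT PBS 2. It was called lower in the 4 comparisons of MPTP with PBS and of KO with WT within a treatment. Ndufs8 was below 0 in the same 4 and called in 2 of them. Of the 15 tested ATP synthase genes, Atp5a1, Atp5e and Atp5h were called lower in KO PBS against WT PBS. For MPTP, Atp5h was also called lower in WT, and Cox6c and Cox7b in KO. Of the 12 tested complex IV genes, Cox6c and Cox7b were called lower in KO MPTP against WT MPTP, a comparison of 1 profile with 1. Both departed from the relations between columns, as did 8 of the 11 genes called in that comparison, which gave no call over all genes with genes off the relations left out, with the row of highest mean per symbol or with no filter on low values. None of the 4 complex II and 9 complex III genes was called in any comparison. Between the WT PBS profiles the median difference was 0.14 for complex III, 0.13 for complex IV, 0.11 for ATP synthase and 0.06 for complex II.

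**Figure D4:**
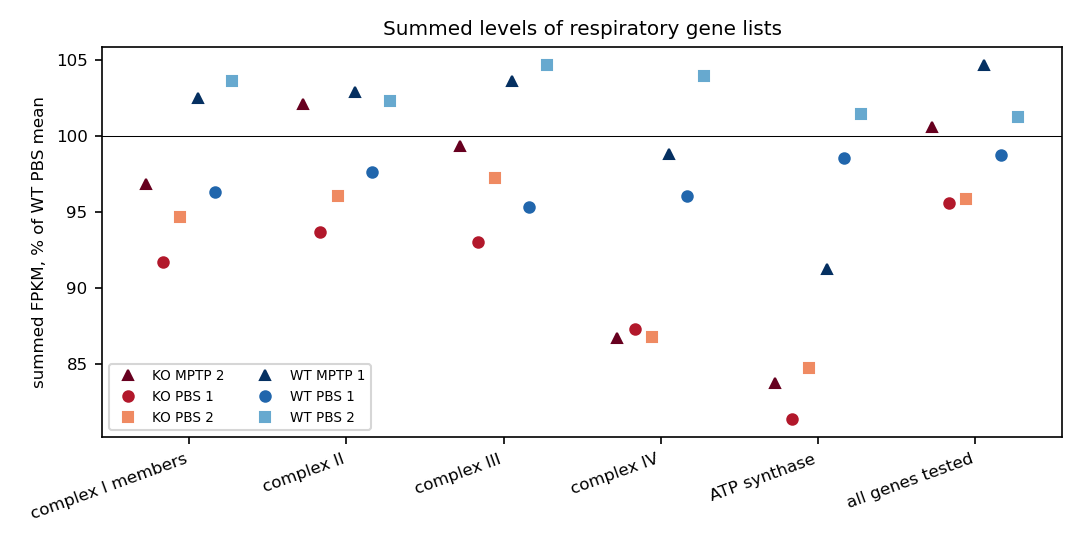
Summed FPKM of complex I members, of the nuclear subunits of the other complexes and of all tested genes in the 6 separate profiles, each as a percent of the mean of the WT PBS profiles (axis not starting at 0). The KO profiles of complex I lie between 91.7% and 96.8% and the WT profiles between 96.3% and 104%, while the KO profiles of ATP synthase lie between 81.4% and 84.7%. A sum gives most weight to the genes of highest level and need not describe a typical gene of a list.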

How the data were processed

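RNA of sorted midbrain microglia was sequenced in 12 samples. The authors deposited 1 table of 67355 rows and 12 columns. The submitters' processing notes list CASAVA 1.5, Bowtie 0.12.7, TopHat, Cufflinks and the build mm9 without saying what each did. No header gives the unit, and the deposited values were read as FPKM, the unit Cufflinks reports. Annotation and filters were not given in the sources used here. Without read depth, counting error cannot be stated.

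Rows were summed per symbol. 1 row with a text entry was left out. Computed columns were found by their arithmetic relation to others, within rounding (0.0101 FPKM for multiples, 0.00995 FPKM for means). Members, lists and tests were chosen with earlier results of these data known. Genes needed 1 FPKM in 3 of the 6 separate profiles, which left 10634. limma 3.58.1 (R 4.3.3), was fitted to log2(FPKM + 1), a scale that understates changes of low genes, with the trend option for the variance. KO against WT used 6 profiles (4 residual and 13.74 prior degrees of freedom). The other comparisons used 5, without the doubly labelled profile (1 residual and 9.01 prior degrees of freedom). P-values were adjusted by Benjamini-Hochberg over all genes, with a threshold of 0.05. The fits were also run on simulated data with the same independent spread for every gene. Those data held no shift shared within a profile, so they cannot bear out the calls made here.

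Members were named with all profiles where they were core subunits, departed from the relations, were called, were the highest or lowest of a role, or were among the 3 largest rises or falls of a comparison. Ndufaf7 and the others whose genotypes did not overlap were added after their values were seen. The levels of 1 core subunit are not reported here, and counts over members include it. Alternatives changed the pseudocount, filter, scaling, row choice, profiles and covariates. Figures used matplotlib 3.10.9.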

Additional observations from a re-analysis of the deposited data

How the results depend on the processing

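Limits: 1 profile a group on most sides, unknown depth and computed columns restrict every result. The members' medians were small, and scaling or a single profile moved them by over 1.5 times, with examples beside the comparisons. For MPTP in KO (0.08) median scaling gave −0.012 and quantile normalization −0.0096. Counts of members called varied more. For KO against WT over both treatments (0 members), they were 2 with the 5 FPKM filter, 13 with all 12 columns as libraries, 2 with a replicate block, 1 with treatment as a covariate and KO PBS 2 as PBS, and between 0 and 2 when each profile was left out. The 5 FPKM filter called 34 of all 7648 genes it kept. Of all 10634 genes tested, the other fits called 1023, 71 and 15 in that order, and between 1 and 50 when each profile was left out. For MPTP in WT (1 member), they were 0 with no filter, with quantile normalization, with the row of highest mean, with the doubly labelled profile as KO MPTP at the values of KO PBS 2 and with genes off the relations left out, an alternative chosen after seeing the data that removes Ndufs8, the member called, from the fit. They were 17 with all 12 columns, 24 with all 12 columns and a replicate block, and 0 with either WT PBS profile left out. For MPTP in KO (1 member), they were 0 under the alternatives that gave 0 in WT and 15 with all 12 columns and a replicate block. For KO PBS against WT PBS (0 members), they were 1 with the 5 FPKM filter, 13 with all 12 columns, 26 with the replicate block added, 2 with the doubly labelled profile as KO PBS and 1 with it as KO MPTP at its KO MPTP 1 values. For KO MPTP against WT MPTP (0 members), they were 1 with the 5 FPKM filter, 18 with all 12 columns and 27 with the replicate block added. For the interaction (0 members), they were 1 and 5 in these last fits. Fits of all 12 columns count computed columns as replicates, and they called many of the 10634 genes tested. Without the block these were 2149 for MPTP in WT, 1321 for KO PBS against WT PBS, 1539 for KO MPTP against WT MPTP and 127 for the interaction. With the block they were 3841, 3025, 3138 and 1043 in that order, and 3303 for MPTP in KO. Genes called for MPTP in KO numbered 23 higher and 8 lower, but 20 higher and 15 lower after median scaling and 3 higher and 5 lower after quantile normalization.

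The labels do not say what a replicate number stands for. The deviations of the same-numbered KO PBS and WT PBS profiles correlated at 0.23 across 10634 genes, but with 2 pairs the numbers were not taken to pair the samples. The replicate block gave 71 genes called for KO against WT, against 4 without it. MPTP in KO set a profile numbered 2 against one numbered 1. The 5-profile fit has too few degrees of freedom for a block.

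Members changed sign as follows, none of them called. For KO against WT, Ndufa11 (0.0035) was −0.021 without KO MPTP 2, −0.038 without WT PBS 1, at most 0.044 when 1 profile was left out, −0.030 with the replicate block and −0.0096 with KO PBS 2 as MPTP in the covariate fit. In the same order Ndufaf3 (0.02) was −0.090, −0.0005, −0.061 and −0.033, and at most 0.14 when 1 profile was left out. Ndufaf4 was −0.0033 without WT PBS 2. For MPTP in KO, Ndufa1 was 0.0023 with all 12 columns, with or without the block, Ndufa2 was −0.0044 after quantile normalization, Ndufaf2 was 0.044 and 0.056 with the doubly labelled profile as KO MPTP at either set of values, and Ndufaf4 was 0.0024 with the row of highest mean. For KO PBS against WT PBS, Ndufa5 (−0.02) was 0.041 after median scaling, 0.062 after quantile normalization, 0.061 with the row of highest mean, 0.042 with all 12 columns, with or without the block, 0.042 with the doubly labelled profile as KO PBS and 0.13 when WT PBS 2 was also left out. Ndufaf5 was 0.032 after median scaling and 0.026 after quantile normalization. For KO MPTP against WT MPTP, Ndufaf6 was −0.0026 with the row of highest mean. The interaction of Ndufs8 (−0.04) was 0.057 with all 12 columns, with or without the block, 0.026 with the doubly labelled profile as KO PBS, 0.22 and 0.011 with it as KO MPTP at the values of KO PBS 2 and KO MPTP 1, and 0.10 with it as KO PBS and WT PBS 1 left out. The cause was not tested.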

Other observations

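Complex I assembly genes without an Nduf symbol had levels like those of the assembly factors among the members. Of 14 listed, 11 were in the table under the listed symbol and tested, with a median level of 7.41 FPKM, beside 6.38 FPKM for the 7 Ndufaf genes. None was called in any of the 6 comparisons. Tmem70, which also serves ATP synthase assembly, was the highest, with 26.2, 25.4 and 25.4 FPKM in KO MPTP 2, KO PBS 1 and KO PBS 2 and 28.2, 25.8 and 26.0 FPKM in WT MPTP 1, WT PBS 1 and WT PBS 2. Nubpl, which delivers iron-sulfur clusters to complex I, was the lowest, with 3.17, 3.84 and 3.42 FPKM in the KO profiles and 3.23, 2.96 and 3.10 FPKM in the WT profiles. For MPTP in KO, 10 of the 11 lay above 0, as did 9230 of all 10634 genes tested. Their median was 0.18, beside 0.09 for all genes. KO PBS 1 was the single PBS profile in that comparison.

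The rows behind a symbol differed in how the level was divided. Of the 45 members, 14 had 1 row, Ndufs8, Ndufa1 and Ndufa2 among them, and 31 had several. In those 31 the largest row held a median of 87.6% of the symbol's level. The lowest shares were in Ndufab1 (29.7%), Ndufc1 (38.3%), Ndufaf3 (42.9%) and Ndufa10 (46.9%). What a row stands for is not given in the sources used here.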
